A study of Mus musculus with 48 samples.

Results

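Salivary gland organoids that had received 4 Gy of photons were set against non-irradiated organoids of the same experiment, both harvested 2 days after irradiation. The organoids came from the submandibular glands of 3 C57BL/6 mice aged 8 to 12 weeks and were irradiated on culture day 5. Each group held 1 library for each mouse number, so the comparison rests on 6 of the 48 libraries of the series, chosen by their titles, and takes in every gene counted in them. The rest of the series added doses of 7 and 15 Gy, a harvest at day 6 and the same doses of protons, each radiation type and day with its own control. Irradiated and control organoids alike were grown in Matrigel with EGF, FGF2, insulin, dexamethasone, the kinase inhibitor Y27632 and media conditioned with R-spondin1 and Wnt3a.

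Ionizing radiation breaks DNA, and cells answer in part through the transcription factor p53, which raises genes that hold the cell cycle or trigger death. DNA or RNA in the wrong place in a cell can be sensed by proteins such as the Ifi200 family, RIG-I (gene Ddx58) and MDA5 (gene Ifih1), which lead to the release of interferon. Interferon receptors then signal through factors that include Stat2 and Irf9, which act at the interferon-stimulated response element in promoters and raise antiviral effector genes, Irf7 and the sensors themselves. The salivary gland is known for lasting loss of saliva after radiotherapy of head and neck tumours.

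The main change 2 days after 4 Gy was a rise of interferon-stimulated genes. Of 11039 genes tested, 59 were higher after 4 Gy (0.534%) and 14 were lower (0.127%), 73 (0.661%) in all, at an adjusted p under 0.05 in edgeR's quasi-likelihood test, which also gives every adjusted p printed below unless another tool is named. Of the 59 that rose, 33 belonged to 5 lists of interferon effectors, 7 to the list of nucleic acid sensors and 4 to that of interferon signalling. The lists were chosen with earlier results of these data known, so counts and medians of lists are a description and not a test. Promoters of 3 genes with large rises are shown first, because they hold the element through which interferon is known to act. The letters searched for were GAAA, any 2 bases and GAAA again, on either strand, in RefSeq windows (build GRCm38.p6) from 250 bases before to 50 bases after each gene's start. The stretches below are the 200 bases before the start, written in the direction of transcription, with the matching letters in capitals.
Ifit1 (chr19:34640689-34640888, plus strand): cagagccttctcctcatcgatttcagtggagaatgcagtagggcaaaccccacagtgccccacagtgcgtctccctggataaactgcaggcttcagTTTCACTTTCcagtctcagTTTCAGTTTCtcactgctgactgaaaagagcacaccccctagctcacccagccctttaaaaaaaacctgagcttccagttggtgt
Isg15 (chr4:156200819-156201018, minus strand): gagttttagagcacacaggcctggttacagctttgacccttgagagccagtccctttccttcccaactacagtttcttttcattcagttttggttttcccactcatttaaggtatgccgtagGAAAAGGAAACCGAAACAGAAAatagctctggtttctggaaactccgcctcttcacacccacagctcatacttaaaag
Rsad2 (chr12:26456453-26456652, minus strand): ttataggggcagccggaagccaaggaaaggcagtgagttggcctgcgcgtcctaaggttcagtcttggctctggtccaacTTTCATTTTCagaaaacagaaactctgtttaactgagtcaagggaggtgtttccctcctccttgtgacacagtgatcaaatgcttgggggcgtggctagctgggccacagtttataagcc
Ifit1 carried 2 matches, whose first bases lay at -104 and -85 from the start. Isg15 carried 3 that overlapped one another, at -78, -72 and -66. Rsad2 carried 1, at -120.

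Further genes that rose are shown by stretches of 30 bases, to compare the element between families.
Igtp (chr11:58199512-58199541, plus strand): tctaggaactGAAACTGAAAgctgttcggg
Irgm1 (chr11:48871431-48871460, minus strand): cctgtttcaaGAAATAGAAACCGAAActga
Ddx60 (chr8:61928024-61928053, plus strand): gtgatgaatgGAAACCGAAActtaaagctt
Ifit3 (chr19:34583363-34583392, plus strand): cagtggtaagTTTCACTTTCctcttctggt
Ifit3b (chr19:34607759-34607788, plus strand): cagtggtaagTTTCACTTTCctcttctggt
The capitals mark a match at -34 in Igtp, overlapping matches at -30 and -24 in Irgm1, and matches at -53 in Ddx60, -156 in Ifit3 and -188 in Ifit3b. Another match lay outside the stretch shown, at -19 in Ddx60, -122 in Ifit3 and -154 in Ifit3b. The stretches of Ifit3 and Ifit3b were the same letter for letter. These genes are close copies, so reads may be split between them and the value of each is uncertain, as it is for members of the Ifi200, Trim30, Gbp, Apol9, Slfn, Serpina3 and metallothionein families.

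RefSeq windows were found for 52 of the 59 genes that rose, and 26 of these (50%) held the element. Among all tested genes with a window, 312 of 8685 (3.59%) held it, and 0 of the 11 windows of genes that fell did. The share was 17 of 28 (60.7%) for interferon effectors that rose and 13 of 32 (40.6%) for tested effectors that did not pass the threshold. Genes that rose outside the effector lists held it in 9 of 24 windows (37.5%). The p53 response element, searched by its consensus with a spacer of up to 13 bases, was too rare in such windows to compare: it was found in 1 of 33 windows of listed p53 targets (3.03%) and in 4 of 8685 of all tested genes (0.0461%). A match is a description of letters within a short window.

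Counts assigned to genes ranged from 2154261 to 3859817 in the 6 libraries, with the control of mouse 3 the lowest. That library also stood apart in expression, at 69.3 on the first principal component of the 12 photon libraries of day 2, where the others lay between -20.4 and 16.2. Mitochondrial genes took 6.84% of its counts against 4.28 to 5.25% in the other 5 libraries. Gm42418, named here after its values were seen, reached 208200 CPM (counts scaled to a common library total by edgeR's TMM factors) in that library and 82000 to 160900 in the other 5. The epithelial identity of the cultures was checked by markers: 14 basal duct genes summed to 11900 to 18100 CPM in controls and 13700 to 14300 after 4 Gy, and 16 luminal duct genes to 5950 to 6600 and 5140 to 6010. Of 20 immune markers 14 were at 0 in all 6 libraries, among them Ptprc, Lyz2, C1qa and Itgax, and the list summed to 207 to 418 CPM in controls and 183 to 409 CPM after 4 Gy, most of it S100a8 and S100a9. The 9 fibroblast markers summed to 2.99 to 3.12 CPM in controls and 1.72 to 3.59 after 4 Gy. Of 17 acinar markers 7 were at 0, among them the secretory genes Smr3a, Bpifa2 and Muc19, and the list summed to 292 to 386 CPM in controls and 318 to 446 CPM after 4 Gy, most of it the ion transport genes Ano1 and Slc12a2.

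Levels in CPM are listed for mice 1, 2 and 3 of each group, and changes are log2 fold changes of 4 Gy against control with their SE (n = 3 libraries a group). The groups of all 73 called genes did not overlap. Over all genes tested, 790 (7.16%) lay wholly above and 692 (6.27%) wholly below control in this sense, and the median change was -0.01. Of the 59 genes that rose, 14 changed by more than 3 on the log2 scale and 21 by more than 2, while 1 of the 14 that fell passed 2. Among the 59, the irradiated library of mouse 2 held the lowest irradiated level for 45, and the control of mouse 1 held the highest control level for 39. Over all 11039 genes tested these counts were 4169 and 3592. In bulk cultures, fewer cells of a type and less RNA per cell cannot be told apart.

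**Figure D1:**
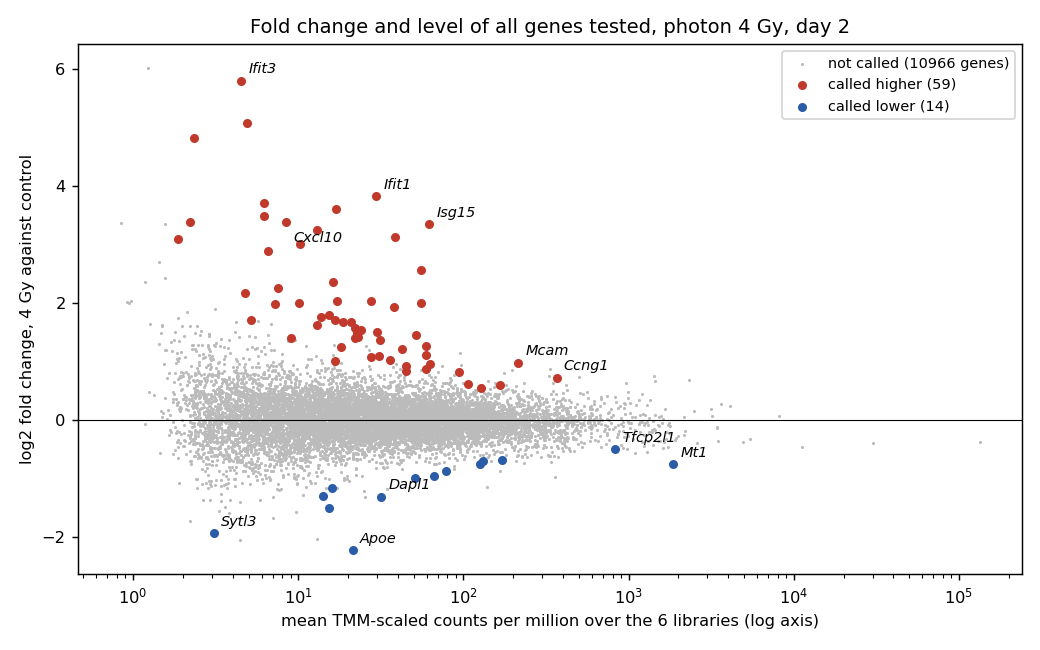
Log2 fold change of 4 Gy against control (y axis) and mean TMM-scaled CPM over the 6 libraries (x axis, log scale) for 11039 genes. The 59 genes called higher (red) reach larger changes than the 14 called lower (blue), and 5 of the 59 lie above 100 CPM.

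Large rises were seen in the Ifit family, RNA-binding proteins that hold back translation of viral RNA. Ifit1 (ENSMUSG00000034459) was at 4.83, 4.49 and 1.56 CPM in controls and at 57.6, 48.0 and 60.9 CPM after 4 Gy. Its change was 3.83 ± 0.31 (adjusted p = 7.82e-05), the smallest p of all genes, and every irradiated library was far above every control. Ifit3 had 1 count over the 3 control libraries and 100 after 4 Gy, and Ifit3b had 2 and 107. The ratios of these counts, scaled for depth, were 72.6 (95% counting interval 12.7 to 2900) and 38.8 (10.5 to 325). Ifit2 changed by 1.07 ± 0.40 (adjusted p = 0.382), with groups that did not overlap. The family thus had 3 of 4 tested members higher and none lower, with a median change of 4.45. Ifit3 and Ifit3b, nearly absent from the controls, passed the filter on low counts through irradiated libraries and so had to differ. The count and the median of the family therefore describe only the members that passed.

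Isg15, a ubiquitin-like protein that is joined to other proteins, and Usp18, the protease that removes it and restrains the interferon receptor, both rose. Isg15 (ENSMUSG00000035692) went from 17.3, 8.97 and 5.19 CPM to 122, 91.1 and 127 CPM, a change of 3.34 ± 0.36 (adjusted p = 0.000343). Usp18 went from 1.99, 1.87 and 3.12 CPM to 19.5, 15.7 and 19.4 CPM, a change of 3.01 ± 0.27 (adjusted p = 0.000132). For both, the lowest irradiated library was several times the highest control. Usp18 passed the filter on low counts through irradiated libraries and so had to differ. Herc6, which attaches Isg15 in the mouse, changed by 1.45 ± 0.51 (adjusted p = 0.344) and Uba7, which activates it, by 0.42 ± 0.30 (adjusted p = 0.649). The list had 2 of 4 tested members higher and a median of 2.23, which describe only the members that passed the filter.

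Among other antiviral effectors 21 of 52 tested were higher and none lower, with a median of 0.81. Rsad2 (ENSMUSG00000020641), which makes a nucleotide that stops viral polymerases, was at 3.69, 1.496 and 2.08 CPM in controls and at 31.5, 33.7 and 29.0 CPM after 4 Gy. Its change was 3.60 ± 0.35 (adjusted p = 0.000132). Rtp4, a receptor transporter protein, went from 12.5, 6.36 and 3.12 CPM to 61.3, 66.8 and 80.7 CPM, by 3.13 ± 0.30 (adjusted p = 0.000132). In both genes the ratio of the highest to the lowest control was larger than that of the irradiated libraries. Ifi44 went from 21.9, 13.8 and 10.9 CPM to 94.6, 77.3 and 113 CPM, by 2.57 ± 0.26 (adjusted p = 0.000194). Trim30a and the helicase Ddx60 changed by 3.71 ± 0.50 (adjusted p = 0.00322) and 3.49 ± 0.51 (adjusted p = 0.00548). Both passed the filter on low counts through irradiated libraries and so had to differ. Rsad2, low in most controls, also needed irradiated libraries to pass that filter. Smaller rises that passed the threshold included Bst2, which tethers virus particles to the cell (1.94 ± 0.31, adjusted p = 0.00939), the lectin Lgals9 (1.71 ± 0.24, adjusted p = 0.00340) and Samd9l (1.44 ± 0.22, adjusted p = 0.00743). The ADP-ribosyltransferases Parp14 and Parp12 rose by 1.48 ± 0.30 (adjusted p = 0.0381) and 1.00 ± 0.18 (adjusted p = 0.0236). Ifitm3 and Isg20, also known as interferon targets, did not pass, at 0.06 ± 0.17 (adjusted p = 0.912) and -0.40 ± 0.36 (adjusted p = 0.711).

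The interferon-inducible GTPases, which act on membranes around microbes, had 6 of 10 tested members higher and none lower, with a median of 1.90. Irgm1 went from 6.25, 9.35 and 4.15 CPM to 29.0, 22.6 and 31.2 CPM, a change of 2.03 ± 0.30 (adjusted p = 0.00548). Igtp went from 8.52, 4.49 and 5.19 CPM to 25.2, 19.6 and 19.4 CPM, a change of 1.76 ± 0.26 (adjusted p = 0.00653). The irradiated libraries of both lay clear of the controls. Gbp7 rose by 1.70 ± 0.28 (adjusted p = 0.0119) and Gbp3 by 2.89 ± 0.55 (adjusted p = 0.0285). Mx2 had 1 control count and 51 after 4 Gy, a ratio of 37.0 (6.35 to 1490), and Iigp1 had 3 and 47, a ratio of 11.4 (3.66 to 57.1). With mouse number as a term in the fit Iigp1 missed the threshold (adjusted p = 0.0615). Ifi47 had 0 control counts and 27 after 4 Gy, and did not pass (adjusted p = 0.123). Mx2, Iigp1 and Ifi47 passed the filter on low counts through irradiated libraries and so had to differ. Gbp3 and Gbp7, low in most controls, also needed irradiated libraries to pass it. The count and the median of the GTPases therefore describe only the members that passed.

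Of the list of oligoadenylate synthetases, enzymes of the antiviral response to double-stranded RNA, 1 of 6 tested genes was higher. That gene, Oasl2, went from 2.84, 1.87 and 2.60 CPM to 26.9, 16.6 and 27.2 CPM, a change of 3.25 ± 0.30 (adjusted p = 0.000132), and its lowest irradiated library was the one of mouse 2. Oas1b and Oas3 did not pass, at 2.03 ± 0.69 (adjusted p = 0.320) and 2.02 ± 0.95 (adjusted p = 0.491). Oasl2, low in most controls, needed irradiated libraries to pass the filter on low counts.

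Over the 5 effector lists together, 76 of 99 members passed the filter on low counts, 33 were higher, none was lower, and the median change was 1.31 against -0.01 for all genes tested. Members nearly absent from the controls, such as Ifi47, Mx2, Ifit3, Ifit3b and Iigp1, passed that filter through irradiated libraries and so had to differ. The same held for Trim30a, Ddx60 and Usp18, which were low in every control. Oasl2, Rsad2, Gbp3, Gbp7 and other members low in some controls also needed irradiated libraries to pass it. The count and the median describe only the members that passed. The number of effectors called was 15 when the control of mouse 2 was left out, 15 when the irradiated library of mouse 3 was, 19 for that of mouse 1, 30 for the control of mouse 3 and 11 in a fit of the 6 libraries alone. Calls of 23 of the 73 genes held with each of the 12 libraries of the fit left out in turn: Apoe, Cxcl10, Dapl1, Ddx60, Ifi203, Ifi44, Ifit1, Ifit3, Ifit3b, Igtp, Irf7, Irgm1, Isg15, Lgals9, Mndal, Oasl2, Rsad2, Rtp4, Samd9l, Sncg, Stat2, Trim30a and Usp18. All 73 kept their direction with each of the 6 libraries compared left out.

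**Figure D2:**
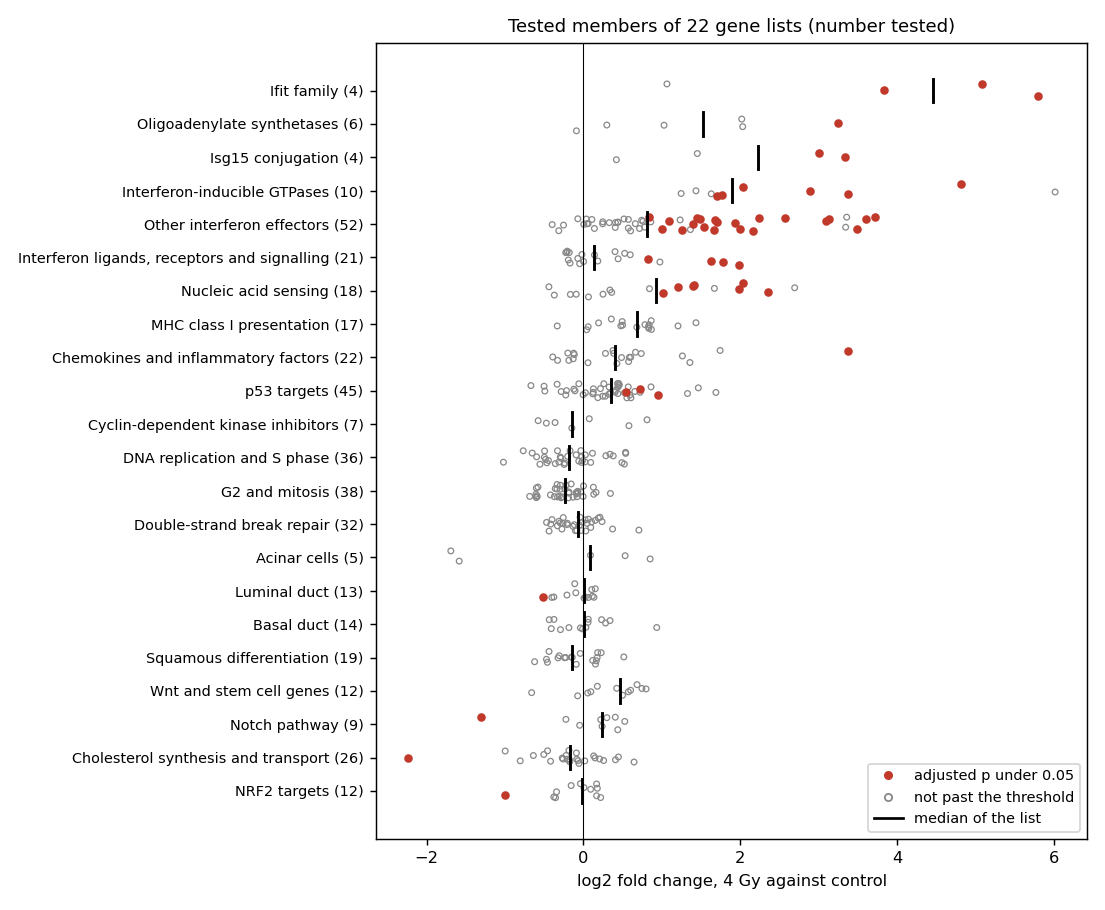
Log2 fold change of 4 Gy against control (x axis) for the tested members of 22 gene lists (y axis, number tested in brackets); filled red points passed an adjusted p of 0.05, open points did not, and the black bar is the list's median. The 5 effector lists at the top have medians from 0.81 to 4.45, and the median over all genes tested was -0.01. Some effectors were nearly absent from the controls and passed the filter on low counts through irradiated libraries.

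Upstream of the effectors, the 7 interferon genes on the list were at 0; other interferon genes were not examined. Ifnb1, Ifna4, Ifnk, Ifne, Ifng, Ifnl2 and Ifnl3 had 0 counts in all 6 libraries, which allows a level of up to 0.363 CPM over the controls and 0.276 CPM over the 4 Gy libraries (3 counts of the group's total, counting error only). The receptor genes Ifnar1 and Ifnar2 changed by 0.60 ± 0.26 (adjusted p = 0.464) and -0.21 ± 0.14 (adjusted p = 0.629). Factors that carry the receptor's signal to promoters were higher. Stat2 went from 7.10, 5.23 and 6.75 CPM to 22.9, 14.9 and 21.4 CPM, a change of 1.62 ± 0.24 (adjusted p = 0.00641). Irf9 went from 67.9, 55.7 and 79.4 CPM to 124, 118 and 115 CPM, a change of 0.82 ± 0.13 (adjusted p = 0.0111). The groups did not overlap in either. Irf7, which carries the signal from sensors to interferon genes and is itself raised by interferon, went from 8.80, 4.49 and 7.27 CPM to 26.7, 19.3 and 26.0 CPM, a change of 1.78 ± 0.24 (adjusted p = 0.00277). Irf3, its constitutive relative, changed by -0.21 ± 0.17 (adjusted p = 0.678), and the kinases Jak1 and Tyk2 by -0.19 ± 0.13 (adjusted p = 0.626) and -0.17 ± 0.21 (adjusted p = 0.789). Of 21 tested members of this list 4 were higher, none lower, and the median was 0.14, which ran from 0.03 to 0.31 with 1 of the 6 libraries left out (0.31 without the control of mouse 1, 0.03 without that of mouse 3 or without the irradiated library of mouse 2). Without 4 Gy mouse 3, 2 of them passed, and in the fit of the 6 libraries none did.

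Of 18 tested sensors of nucleic acids and their partners 7 were higher, none was lower, and the median was 0.93. The Ifi200 family, whose human member IFI16 senses DNA, supplied 5 of the 7. Mndal went from 15.3, 8.97 and 6.75 CPM to 44.7, 41.1 and 47.6 CPM, a change of 2.04 ± 0.26 (adjusted p = 0.00170). Ifi203 went from 7.38, 5.61 and 2.08 CPM to 26.4, 19.3 and 37.1 CPM, a change of 2.35 ± 0.35 (adjusted p = 0.00653). Ifi205, Ifi211 and Ifi204 rose by 1.99 ± 0.37 (adjusted p = 0.0253), 1.40 ± 0.26 (adjusted p = 0.0258) and 1.41 ± 0.29 (adjusted p = 0.0463). Ifi203 and Ifi205, low in some controls, needed irradiated libraries to pass the filter on low counts. Ifi204 missed the threshold with mouse number in the fit (adjusted p = 0.0839). In all 5 the control of mouse 3 was the lowest library. The RNA sensor Ifih1 went from 27.3, 20.2 and 23.9 CPM to 46.7, 46.6 and 51.5 CPM, a change of 1.02 ± 0.18 (adjusted p = 0.0209), and Ddx58 rose by 1.21 ± 0.23 (adjusted p = 0.0308). The DNA sensor Cgas and its partner Tmem173 (STING) did not pass, at 0.36 ± 0.24 (adjusted p = 0.628) and -0.44 ± 0.17 (adjusted p = 0.420). The same held for the RNA adaptor Mavs, at -0.37 ± 0.23 (adjusted p = 0.600), and the kinase Tbk1, at 0.06 ± 0.15 (adjusted p = 0.888). The number of sensors called was 2 when the 4 Gy library of mouse 1 or of mouse 3 was left out, 4 for the control of mouse 2 or the 7 Gy library of mouse 2, 6 for the control of mouse 3 and 1 in the fit of the 6 libraries.

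Of 22 tested chemokines and inflammatory factors, 1 was higher, and the median was 0.41, or 0.22 without the control of mouse 3 and 0.60 without that of mouse 1. Cxcl10, which draws T cells and is an interferon target, was at 1.70, 2.24 and 0 CPM in controls and at 18.1, 13.8 and 14.7 CPM after 4 Gy, a change of 3.37 ± 0.52 (adjusted p = 0.00825). Each irradiated library was several times the highest control. Cxcl10 passed the filter on low counts through irradiated libraries and so had to differ. Ccl5 and Cxcl1 had groups that did not overlap but did not pass, at 1.74 ± 0.50 (adjusted p = 0.205) and 1.26 ± 0.44 (adjusted p = 0.334).

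Genes of antigen presentation on MHC class I, which interferon also raises, had a median change of 0.68 with 16 of 17 tested above 0, yet none passed. The number that passed was 2 without the control of mouse 1, 1 without that of mouse 3 and 4 with no filter on low counts. Tap1, which carries peptides to MHC, was at 41.7, 46.4 and 63.3 CPM in controls and at 80.0, 70.6 and 89.8 CPM after 4 Gy, a change of 0.68 ± 0.16 (adjusted p = 0.0879). It passed with library size alone as the scaling (adjusted p = 0.0229), with DESeq2 (adjusted p = 0.00897) and without the control of mouse 3 (adjusted p = 0.0105). B2m, the shared light chain, was at 347, 238 and 124 CPM in controls and at 455, 397 and 446 CPM after 4 Gy, a change of 0.87 ± 0.28 (adjusted p = 0.291). The groups of both did not overlap, and the controls of B2m spread more widely than its irradiated libraries. The control of mouse 3 was the lowest control for 12 of the 17 genes, and for 4600 of all 11039 genes tested. Without that library the median of the list was 0.46, while without the control of mouse 1 it was 1.07.

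**Figure D3:**
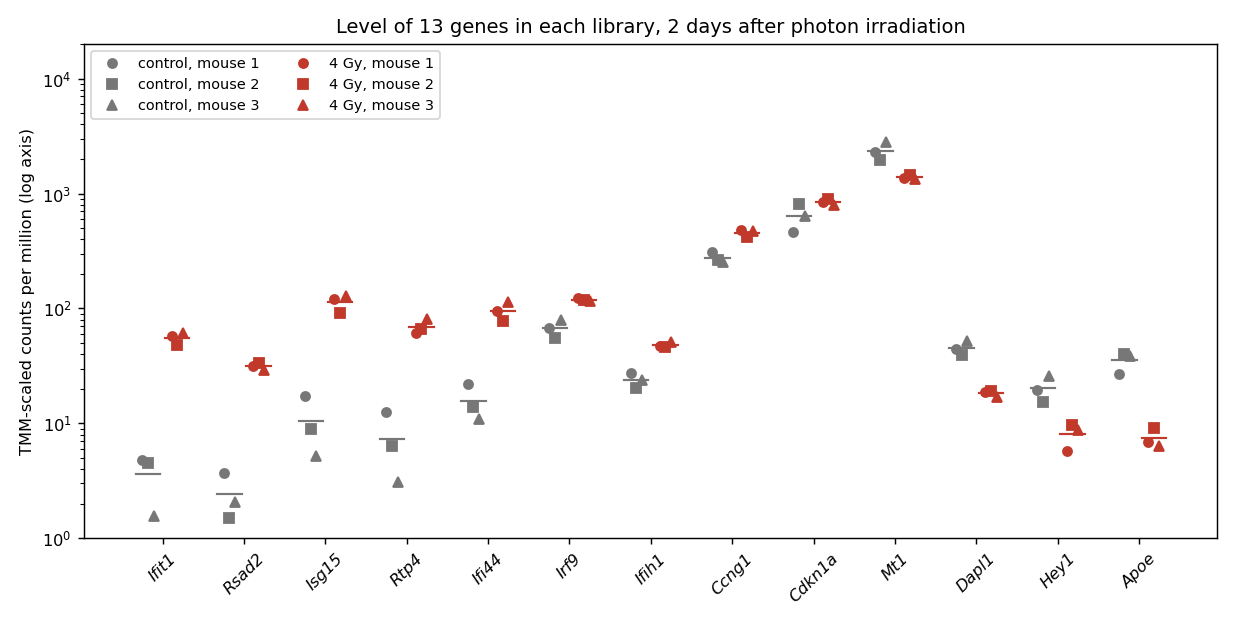
TMM-scaled CPM (y axis, log scale) of 13 genes in each of the 6 libraries, grey for control and red for 4 Gy, with a symbol for each mouse and a bar at the group mean. The groups are apart in all of them except Cdkn1a, where they overlap.

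Targets of p53 moved less. Of 45 listed genes, all tested, 3 were higher and none lower, and the median was 0.35 with 34 above 0. Ccng1, a cyclin-like target of p53, went from 312, 262 and 255 CPM to 478, 419 and 469 CPM, a change of 0.72 ± 0.12 (adjusted p = 0.0114). Ak1, an adenylate kinase, went from 46.8, 33.3 and 48.3 CPM to 95.5, 69.5 and 82.2 CPM, a change of 0.95 ± 0.16 (adjusted p = 0.0134). Ercc5, a nuclease of nucleotide excision repair, went from 106, 96.5 and 109 CPM to 161, 149 and 145 CPM, a change of 0.55 ± 0.11 (adjusted p = 0.0350). Each was higher in all 3 irradiated libraries than in any control. With mouse number as a term in the fit Ercc5 missed the threshold (adjusted p = 0.0869). Mdm2, which marks p53 for destruction, was at 157, 146 and 96.0 CPM in controls and at 204, 207 and 199 CPM after 4 Gy, a change of 0.61 ± 0.17 (adjusted p = 0.191). Cdkn1a, the p53-driven inhibitor of the cell cycle, was at 465, 809.8 and 635 CPM in controls and at 849.9, 892 and 791 CPM after 4 Gy, a change of 0.41 ± 0.17 (adjusted p = 0.452). Mdm2 did not overlap between groups, and Cdkn1a did, since its control of mouse 2 lay above the irradiated library of mouse 3. The death receptor Fas and the death-promoting Bbc3 did not pass, at 1.69 ± 0.40 (adjusted p = 0.0921) and 0.45 ± 0.13 (adjusted p = 0.211). The number of p53 targets called was 0 when the control of mouse 2 or the irradiated library of mouse 1 or of mouse 3 was left out and in the fit of the 6 libraries.

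No gene of the cell cycle or repair lists passed. The 38 genes of G2 and mitosis had a median of -0.23, with 5 above 0, and the 36 of DNA replication a median of -0.19, with 11 above 0. The irradiated library of mouse 2 was the lowest irradiated library for 36 of the 38 mitotic genes, and for 4169 of all 11039 genes tested. Without that library the median of the mitotic genes was -0.09, while without the control of mouse 1 it was -0.11. For the replication genes the median was -0.03 without the control of mouse 3, 0.02 without the irradiated library of mouse 2 and -0.33 without that of mouse 1. Mki67, a marker of cycling cells, was at 85.7, 71.8 and 133 CPM in controls and at 84.3, 40.0 and 68.7 CPM after 4 Gy, a change of -0.58 ± 0.32 (adjusted p = 0.557). Lmnb1, a nuclear lamin that is lost in senescent cells, was at 88.6, 81.5 and 133 CPM in controls and at 88.9, 58.8 and 90.1 CPM after 4 Gy, a change of -0.34 ± 0.21 (adjusted p = 0.609). The groups overlapped in both. Of 7 inhibitors of cyclin-dependent kinases none passed, with Cdkn2b at 0.81 ± 0.24 (adjusted p = 0.239) and Cdkn2a at 0.58 ± 0.24 (adjusted p = 0.448). With no filter on low counts 2 of the 7 inhibitors were higher and 1 of the 36 replication genes was lower. In that setting 1 of 15 Bcl2 family genes was lower, and no mitosis or repair gene passed. The 32 tested genes of double-strand break repair had a median of -0.07, which ran from -0.16 to 0.04 with 1 of the 6 libraries left out, and the 12 of the Bcl2 family one of -0.10, which ran from -0.21 to -0.06.

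Genes of the epithelial cell types were mostly below the threshold. The basal keratin Krt5 was at 3663, 4146 and 3577 CPM in controls and at 4593, 4204 and 4571 CPM after 4 Gy, a change of 0.23 ± 0.12 (adjusted p = 0.544). Krt14, its partner, was at 3806, 4430 and 8536 CPM in controls and at 4419, 4301 and 4201 CPM after 4 Gy, a change of -0.38 ± 0.25 (adjusted p = 0.628). The high Krt14 control was that of mouse 3, and without it the change was 0.06. The luminal keratin Krt8 changed by 0.13 ± 0.15 (adjusted p = 0.776). None of 14 basal duct, 19 squamous, 12 Wnt and stem cell or 5 acinar genes tested passed, and 1 of 13 luminal duct genes fell. That gene was Tfcp2l1, a transcription factor of ducts, which went from 1020, 952 and 937 CPM to 677, 691 and 673 CPM, a change of -0.51 ± 0.11 (adjusted p = 0.0453). The groups lay apart, and the call was lost with library size alone (adjusted p = 0.249), with mouse number in the fit (0.104) and with each of 11 of the 12 libraries left out. The acinar water channel Aqp5 was at 7.10, 11.6 and 25.4 CPM in controls and at 4.30, 4.41 and 5.15 CPM after 4 Gy, a change of -1.58 ± 0.44 (adjusted p = 0.189). The Wnt list had a median of 0.46, with Ccnd1 at 0.68 ± 0.20 (adjusted p = 0.205), Cd44 at 0.75 ± 0.22 (adjusted p = 0.218) and Sox9 at 0.50 ± 0.15 (adjusted p = 0.218). That median was 0.24 without the control of mouse 3, 0.70 without that of mouse 1 and 0.19 with no filter on low counts. Without the filter 1 of 14 basal duct and 2 of 17 Wnt genes were higher, and 1 of 23 squamous genes was lower. Of 13 acinar genes 1 was then higher and 2 were lower.

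Of the 14 genes that fell, Apoe and Dapl1 held with each library left out. Apoe (ENSMUSG00000002985), a carrier of lipids between cells, went from 27.0, 40.0 and 38.9 CPM to 6.88, 9.11 and 6.38 CPM, a change of -2.23 ± 0.30 (adjusted p = 0.00322). Dapl1 (ENSMUSG00000026989), which encodes a death-associated protein-like protein, went from 44.6, 39.6 and 52.4 CPM to 18.6, 19.0 and 16.9 CPM, a change of -1.32 ± 0.16 (adjusted p = 0.000973). The highest irradiated library of both was under the lowest control by a wide margin. Apoe was the only member of 26 tested in the cholesterol list to pass. Serpina3m, a protease inhibitor of a family with close copies, went from 23, 19.1 and 26.5 CPM to 6.31, 9.11 and 8.34 CPM, a change of -1.51 ± 0.27 (adjusted p = 0.0186). Hey1, a repressor downstream of Notch, went from 19.6, 15.3 and 26.0 CPM to 5.73, 9.66 and 8.83 CPM, a change of -1.30 ± 0.25 (adjusted p = 0.0289), with an adjusted p of 0.0577 once mouse number was in the fit. The other 8 tested Notch genes did not pass, with Hes1 at 0.44 ± 0.23 (adjusted p = 0.547) and Jag1 at 0.53 ± 0.19 (adjusted p = 0.376).

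The remaining genes that fell were of mixed function. Gstm1, which joins glutathione to reactive compounds, went from 71.8, 66.6 and 66.5 CPM to 33.5, 39.2 and 29.4 CPM, a change of -1.01 ± 0.20 (adjusted p = 0.0308). Ngfr, a receptor for neurotrophins, went from 81.8, 74.0 and 107 CPM to 43.9, 49.7 and 41.2 CPM, a change of -0.96 ± 0.18 (adjusted p = 0.0297). Mt1, a metallothionein that binds zinc, went from 2298, 1946 and 2787 CPM to 1373, 1461 and 1329 CPM, a change of -0.76 ± 0.15 (adjusted p = 0.0308). No irradiated library of these reached a control. On the log2 scale Map3k1, a kinase of stress signalling, fell by 0.76 (adjusted p = 0.0101), and Lgi2 fell by 0.87 (adjusted p = 0.0297). Mapt, which encodes tau, fell by 1.17 (adjusted p = 0.0395), Pkp4, of cell junctions, fell by 0.70 (adjusted p = 0.0374) and Ddi2 fell by 0.69 (adjusted p = 0.0463). Sytl3, of vesicle transport, had a mean under 5 CPM and changed by -1.94 ± 0.40 (adjusted p = 0.0463). With mouse number in the fit the adjusted p was 0.0578 for Gstm1, 0.0720 for Mt1, 0.0501 for Mapt, 0.0839 for Pkp4, 0.0814 for Ddi2 and 0.0998 for Sytl3. With library size alone Ddi2, Gstm1, Lgi2, Mapt, Mt1, Ngfr and Sytl3 missed the threshold.

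Outside the lists, 11 genes rose. Zfp365, a zinc finger gene, went from 13.9, 8.97 and 9.86 CPM to 40.1, 24 and 34.6 CPM, a change of 1.56 ± 0.26 (adjusted p = 0.0119). Ano3, of the anoctamin family, went from 14.8, 13.5 and 19.2 CPM to 55.9, 25.4 and 50.8 CPM, a change of 1.495 ± 0.30 (adjusted p = 0.0371). In both, the irradiated library of mouse 2 was the lowest irradiated one. Sncg, which encodes gamma-synuclein, went from 44.01, 30.7 and 37.4 CPM to 94.0, 67.9 and 80.0 CPM, a change of 1.10 ± 0.17 (adjusted p = 0.00825). Mcam, an adhesion molecule, went from 166, 131 and 136 CPM to 244, 262 and 346 CPM, a change of 0.98 ± 0.18 (adjusted p = 0.0214). All irradiated libraries of both were above all controls. Cd55, which shields cells from complement, rose by 1.25 ± 0.22 (adjusted p = 0.0150), Pros1, an anticoagulant protein, by 0.91 ± 0.17 (adjusted p = 0.0285) and Tpp1, a lysosomal peptidase, by 0.60 ± 0.12 (adjusted p = 0.0469). Trim12c, Rgs17, Pqlc3 and Apbb2 made up the rest, with changes of 1.36, 1.07, 0.87 and 0.61. With mouse number in the fit the adjusted p was 0.104 for Tpp1, 0.0839 for Rgs17, 0.0839 for Pqlc3 and 0.0801 for Apbb2, and with library size alone Rgs17 and Pqlc3 missed the threshold.

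The number of genes called rested on the libraries in the fit. Against 73, it was 23 when the irradiated library of mouse 3 was left out, 30 for that of mouse 1, 35 for the control of mouse 2, 46 for the 7 Gy library of mouse 2 and 172 for the control of mouse 1. Without the control of mouse 3, the library that stood apart, it was 76, of which 59 were among the 73. Of the 73, 80.8% were higher, and this share was 91% of 67 genes with library size alone and 69.5% of 118 genes with DESeq2.

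**Figure D4:**
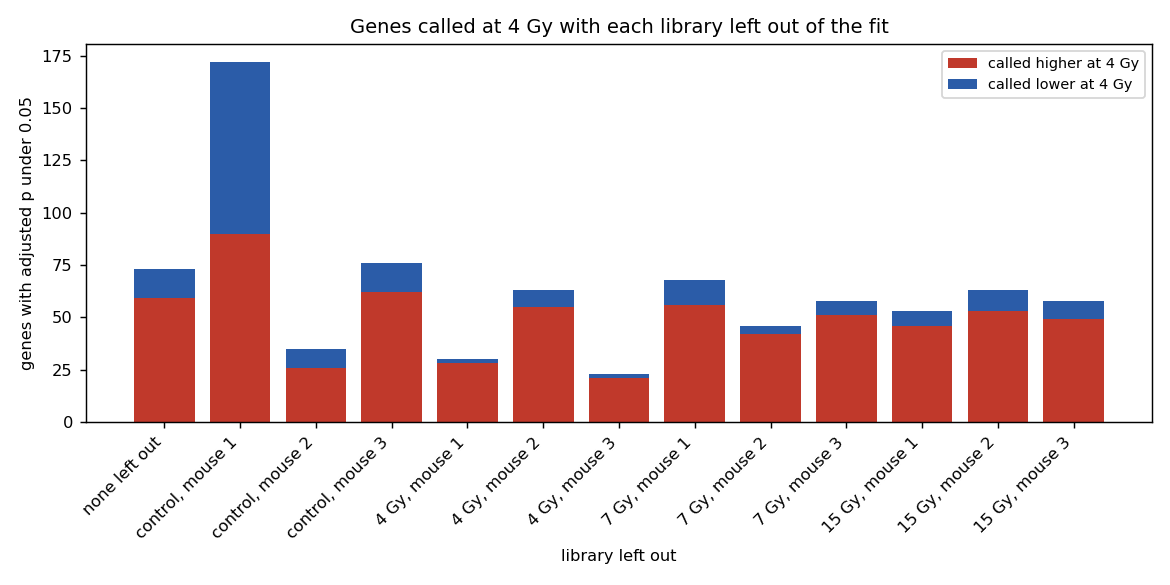
Number of genes with an adjusted p under 0.05 for 4 Gy against control (y axis, higher in red, lower in blue) in the full fit and with each of the 12 photon libraries of day 2 left out (x axis). The number runs from 23 without 4 Gy mouse 3 to 172 without the control of mouse 1.

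The dose of 15 Gy was set against 4 Gy on the same day. This comparison shares the 4 Gy libraries with the one above, so the changes of both are given side by side and not as independent results. At 15 Gy 26 genes were higher (0.236%) and 3 lower (0.0272%) than at 4 Gy, and of the 76 tested effectors 20 were higher and none lower, with a median of 0.93. Rsad2 differed by 1.96 ± 0.24 (adjusted p = 0.00523), Ifit1 by 1.52 ± 0.22 (adjusted p = 0.0171) and Tap1 by 0.93 ± 0.15 (adjusted p = 0.0262). Isg15 did not pass, at 1.19 ± 0.29 (adjusted p = 0.176). Among p53 targets Ccng1 differed by 0.32 ± 0.12 (adjusted p = 0.474) and Cdkn1a by 0.54 ± 0.17 (adjusted p = 0.405). Of the genes lower at 4 Gy, Serpina3m was lower again at 15 Gy, by -1.97 ± 0.37 (adjusted p = 0.0477), with an adjusted p of 0.0640 once mouse number was in the fit, and Apoe differed by -0.53 ± 0.36 (adjusted p = 0.622). The count of 29 became 7 with library size alone. It was 0 when the 4 Gy library of mouse 1 or of mouse 3 was left out and 2 for that of mouse 2, and it was 1 and 3 when the 15 Gy library of mouse 1 or of mouse 3 was.

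At day 6 after 4 Gy of photons, against controls of that day, 106 genes were higher (0.937%) and 33 lower (0.292%), 1.23% of all tested. Of the 59 genes that rose at day 2, 47 were higher at day 6 (79.7% of the 59 and 44.3% of the 106). Of the 14 that fell, 1 was lower at day 6 (7.14% of the 14 and 3.03% of the 33), and that gene was Lgi2. The 4 Gy library of mouse 3 at day 6 held only 314409 counts, and without it 50 of the 59 and 1 of the 14 passed. Ifit1 changed by 3.03 ± 0.37 (adjusted p = 0.000426) and Irf7 by 2.52 ± 0.25 (adjusted p = 8.91e-05). Cxcl10 changed by 1.38 ± 0.51 (adjusted p = 0.370) and Apoe by -0.21 ± 0.46 (adjusted p = 0.971). The difference between the days was tested as an interaction, and edgeR called 0 of 11578 genes, with 609 at an unadjusted p under 0.05, while DESeq2 called 1. In simulated data this interaction recovered 34% of changes of 1 on the log2 scale and 75% of changes of 2. The comparison of 4 Gy with control at day 2 recovered 53% and 93%, so 0 calls do not show equal effects. The difference, day 6 minus day 2, was 2.03 ± 0.60 (adjusted p = 0.796) for Apoe, 1.39 ± 0.41 (adjusted p = 0.796) for Serpina3m and -1.99 ± 0.95 (adjusted p = 0.891) for Cxcl10.

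After 4 Gy of protons, at day 2 and against their own controls, 74 genes were higher (0.703%) and 37 lower (0.351%), 1.05% of all tested. Of the 59 genes that rose after photons 45 were higher (76.3% of the 59 and 60.8% of the 74). Of the 14 that fell, 12 were tested and 5 were lower (35.7% of the 14 and 13.5% of the 37). Ifit1 changed by 4.53 ± 0.53 (adjusted p = 0.000331), Isg15 by 3.15 ± 0.52 (adjusted p = 0.00442) and Ccng1 by 0.67 ± 0.12 (adjusted p = 0.00535). Apoe changed by -1.93 ± 0.42 (adjusted p = 0.0262), Dapl1 by -1.79 ± 0.31 (adjusted p = 0.00533), Hey1 by -1.42 ± 0.30 (adjusted p = 0.0248) and Mt1 by -0.77 ± 0.14 (adjusted p = 0.00763). The water channel Aqp5, below the threshold after photons, changed by -1.84 ± 0.38 (adjusted p = 0.0189). Of 73 effectors tested 31 were higher, with a median of 1.41. The interaction of radiation type and dose called 0 of 11116 genes in edgeR, with 311 at an unadjusted p under 0.05, and 0 in DESeq2. Its recovery in simulated data was 25% for changes of 1 on the log2 scale and 78% for changes of 2. The experiments with each radiation type had separate dates, so the type of radiation and the day of the experiment cannot be told apart.

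**Figure D5:**
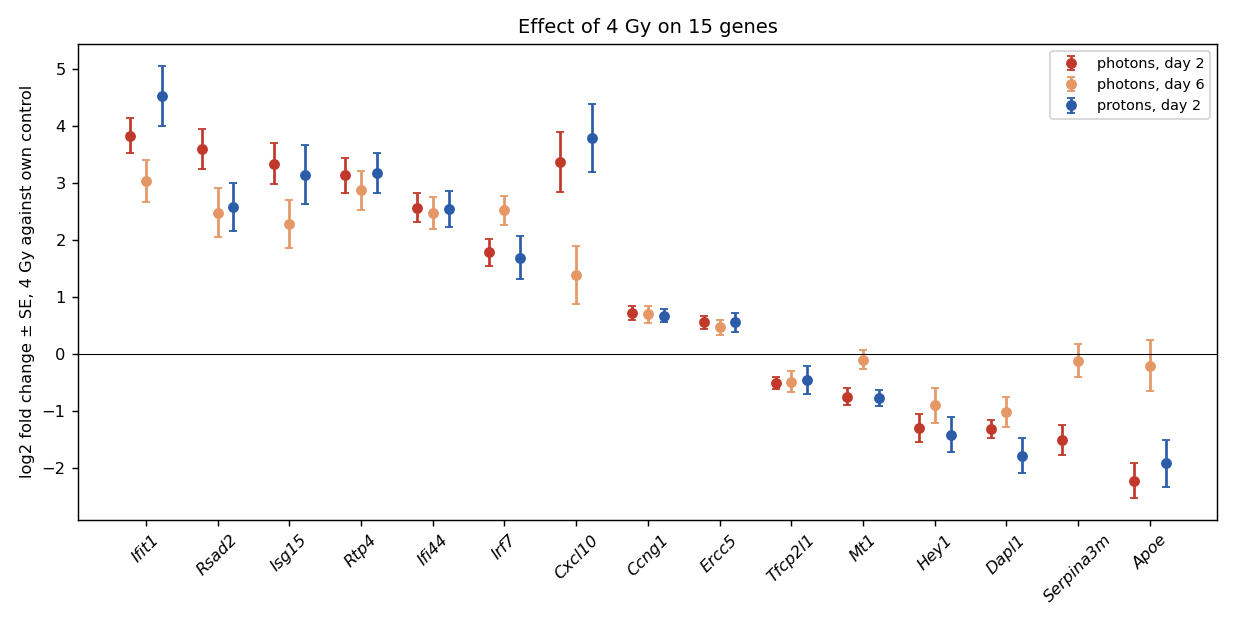
Log2 fold change of 4 Gy against its own control with SE (y axis) for 15 genes (x axis), for photons at day 2, photons at day 6 and protons at day 2. Ifit1 and Isg15 are above 0 in all 3, and Apoe is at -2.23, -0.21 and -1.93.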

How the data were processed

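Libraries were made from 100 ng of RNA with an integrity number above 9 by a 3' tag method, per the labels. The authors deposited raw read counts per gene (unit: counts), with build GRCm39 and edgeR named in the submitters' processing notes; aligner, counter, strand setting and annotation: not given in the sources used here. Each file held 47643 gene identifiers, of which 47224 had a symbol in the reference table, and 5 summary lines, which were dropped (reads in no feature were 7.88 to 9.86% of the 6 libraries). The 12 photon libraries of day 2 were fitted together with edgeR 4.0.16 in R 4.3.3 (TMM, filterByExpr, quasi-likelihood F test, Benjamini-Hochberg over all genes tested, threshold 0.05), with no covariate. Interactions used the libraries of both days or both radiation types, and day 6 and protons their own 12 libraries. SE is the log2 fold change over the square root of F. The scripts were tested on simulated data. Alternatives were library size alone, DESeq2 1.42.0, no filter, mouse number as a block, the 6 libraries alone and each library left out; leaving out the shallow library of day 6 was chosen after seeing the data. Mouse numbers come from the labels and pair the libraries; the deviations of control and 4 Gy libraries correlated at -0.088, 0.38 and -0.018 for mice 1, 2 and 3. Whether the same mice served photons and protons is not given. P-values measure the spread between cultures of 3 mice, pooled over all groups of a fit. With no covariate, libraries of the same mouse number were treated as independent. Counting error is all that intervals and floors cover. The 38 gene lists (726 members, 723 matched, 569 tested) were chosen with earlier results of these data known. Genes with values per library were the 12 highest and 12 lowest called ones averaging 5 CPM or more, up to 4 called members of each list, and 16 genes set by name; B2m, Zfp365, Ano3, Sncg and Mcam were given values per library outside that rule, chosen after their values were seen, as were uncalled genes named with a change only. Promoter stretches are from RefSeq (GRCm38.p6), not the build of the counts. Some genes are not reported here.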

Additional observations from a re-analysis of the deposited data

How the results depend on the processing

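All 73 calls of 4 Gy against control kept their direction with each of the 6 compared libraries left out, and 15 held in all 17 alternatives. Their number was 67 with library size alone, 57 with mouse number as a replicate block, 118 with DESeq2 (1285 adjusted p-values were NA), 264 (171 higher and 93 lower) with no filter on low counts and 15 in a fit of the 6 libraries alone, which has fewer samples; leaving out 1 library of the 12 gave 23 to 172. The block gave 30 effectors, 6 sensors and 2 p53 targets; of the 73 calls 56 were kept, and those lost were the ones given with their values in the report, Trim34a (adjusted p = 0.0598) and Dtx3l (adjusted p = 0.092). The 6 libraries alone gave 11 effectors, 1 sensor, 0 signalling genes and 0 p53 targets, and no filter gave 5 p53 targets. Leaving out 1 library gave 15 to 32 effectors, 2 to 7 sensors, 2 to 4 signalling genes and 0 to 4 p53 targets. For 15 Gy against 4 Gy the 29 calls became 7 with library size alone, 75 with DESeq2, 453 (103 higher and 350 lower) with no filter, 43 with the block and 53 with the libraries compared alone, and 0 to 23 with 1 library left out. The interaction of day had 0 calls, 1 with DESeq2, 122 with no filter and 0 to 1 with 1 library left out; that of radiation type had 0, and 1 with no filter. Without the shallow library, the 139 calls of day 6 became 189. Directions reversed for 2 genes that were not called: with 1 library left out, Acta2 ranged from -0.66 to 0.64 (0.21 without 4 Gy mouse 3) and Krt14 from -0.59 to 0.0623. Library size alone moved the median change of all genes from -0.0138 to 0.0682. The causes of these changes were not tested. With 8270974 control and 10852634 irradiated counts, levels under 0.363 and 0.276 CPM could not be told from 0.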
